A study of Mus musculus with 19 samples.

Results

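The genes described here are those of the nuclear genome named as subunits of the mitochondrial respiratory chain. They were chosen by symbol: the Nduf subunits of complex I, the Sdh subunits of complex II, the Uqcr genes and Cyc1 of complex III, Cycs, the Cox4 to Cox8 families of complex IV, and the Atp5 genes of complex V. The last rule also took in Atp5s, a coupling factor, and Atp5sl, the gene RefSeq calls Dmac2, known as a complex I assembly factor; neither is a structural subunit. Of 32694 gene symbols in the table, 86 matched, and 82 were described because at least 5 libraries reached 10 normalized counts. Complex I had 35 described genes, complex II 4, complex III 9, cytochrome c 1, complex IV 16 of 20 and complex V 17. Ndufa4 and its relative Ndufa4l2 are counted with complex IV, where Ndufa4 protein is now placed. The 4 genes not described were Cox6a2, Cox7b2, Cox8b and Cox8c, all of complex IV. Closest to the limit from below was Cox8b, with 66.11 in wild-type replicate 3 and at most 14.95 elsewhere, and closest from above was Cox4i2, with 15.86 to 74.92 over the 19 libraries. None of the 13 genes of mitochondrial DNA was analysed here.

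All mice were 12 weeks old, and poly-A RNA of 1 tissue piece per mouse was sequenced in single-end reads of 75 bases. Wild-type colon came from 3 females and 2 males. Apc tumours came from 3 females and 4 males in which Villin-Cre, a recombinase driven by a promoter of the intestinal epithelium, had removed 1 allele of Apc, the gene of a tumour suppressor that restrains Wnt signalling. Apc/Tgif tumours came from 3 females and 4 males in which the same recombinase had removed 1 allele of Apc and both alleles of Tgif1 and of Tgif2, which encode related homeodomain repressors. Each tumour is thus a piece of tissue in which the recombinase acts in epithelial cells, set beside whole wild-type colon, and no normal colon with the Tgif deletions was measured. Tgif1 was lower in Apc/Tgif than in Apc tumours (log2 fold change -3.47, limma adjusted p = 2.54e-10), whereas Tgif2 summed over the whole gene was higher (2.05, limma adjusted p = 1.14e-07). Which part of Tgif2 was deleted is not stated in the labels, so its total does not check the label, and each direction stated for Apc/Tgif tumours depends on that label.

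Electrons from NADH enter the chain at complex I and those from succinate at complex II, pass through ubiquinone to complex III, by cytochrome c to complex IV, and end on oxygen. Complexes I, III and IV pump protons across the inner mitochondrial membrane, and complex V, the ATP synthase, uses the return flow to make ATP. Absorptive cells of the colon are known for oxidizing butyrate in their mitochondria, and some complex IV subunits exist as paired isoforms that differ by tissue.

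Nuclear-encoded respiratory chain genes were lower in both kinds of tumour than in wild-type colon, in every complex, while Ndufa4 was higher in both and Ndufa4l2 in Apc tumours. In Apc tumours 64 of the 82 genes passed the limma test as lower, against 25.2% of all 18445 genes tested, and 2 passed as higher, against 23.9%. In Apc/Tgif tumours 64 were lower than in wild-type colon, against 25.5% of all genes, and 1 was higher, against 24.8%. In either direction 49.1% and 50.3% of all genes were called. The median log2 fold change of the 82 genes was -0.60 in Apc tumours and -0.68 in Apc/Tgif tumours, where the medians over all genes were -0.012 and 0.0016. The wild-type libraries are shared by both comparisons, so they are not independent of each other. With group and sex removed, levels of the 82 genes still correlated across the 19 libraries (median pairwise r 0.728, with 93.8% of pairs above 0). The 64 calls are thus not 64 separate results. Between the tumour genotypes 4 genes were lower and 2 higher, which is below the share of all genes (8.76% lower and 7.88% higher), and the median was -0.06. Groups that did not overlap, with every tumour below every wild-type library, were found for 35 genes in Apc tumours (15.4% of all genes) and 24 in Apc/Tgif tumours (16.5% of all genes). Between the tumours the ranges of all 82 genes overlapped, whereas 1.77% of all genes lay wholly lower in Apc/Tgif tumours and 2.3% wholly higher.

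**Figure D1:**
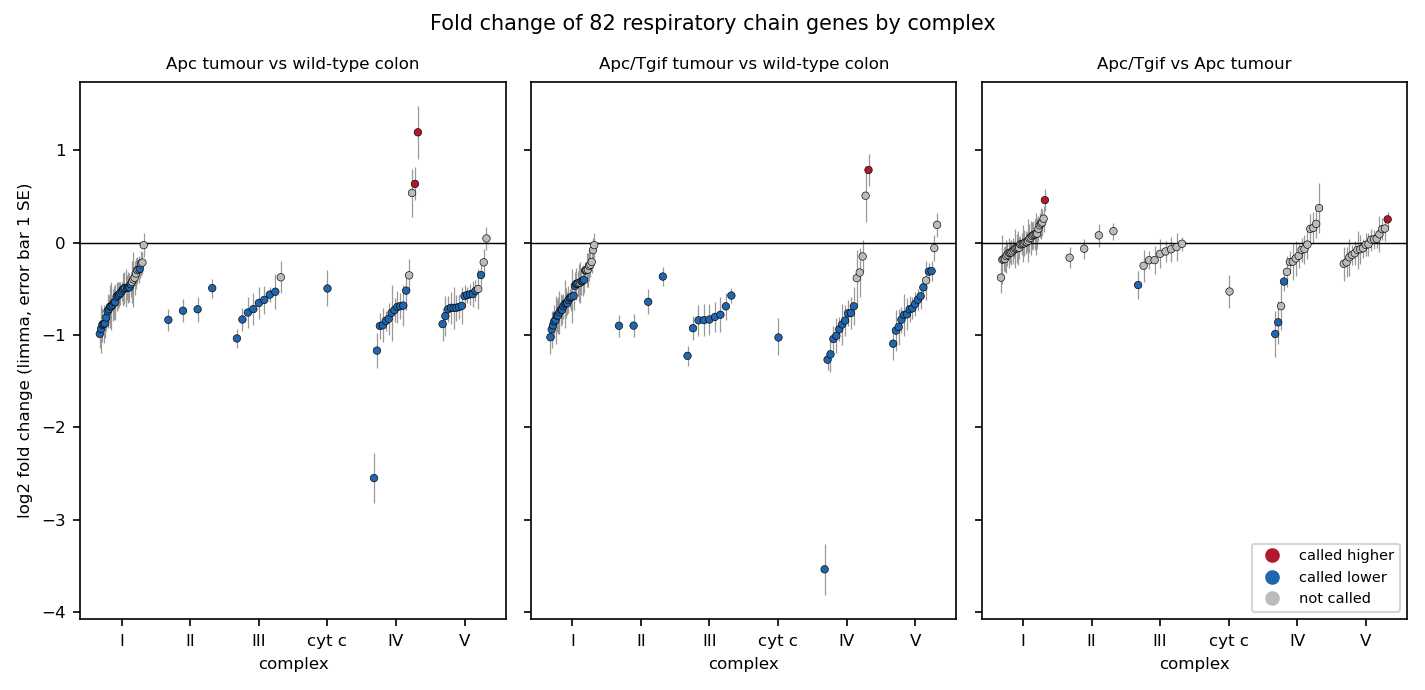
Log2 fold change of each of the 82 respiratory chain genes (vertical axis, limma estimate with 1 SE) by complex (horizontal axis) in the 3 comparisons, coloured by the test. Nearly all points of both comparisons with wild-type colon lie below 0, with Cox7a1 lowest at -2.55 and -3.54, whereas between the tumours 76 of 82 genes are not called.

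Summed over the 82 genes, the respiratory chain took 1.319%, 1.452%, 1.329%, 1.845% and 1.65% of all normalized counts in the 5 wild-type libraries. The Apc tumours ranged from 0.982% to 1.38% with a median of 1.2%, and the Apc/Tgif tumours from 0.995% to 1.25% with a median of 1.10%. The highest Apc tumour thus overlapped the 2 lowest wild-type females, and the Apc/Tgif tumours lay below all wild-type libraries. Wild-type replicate 4, a male, was the highest of its group in 78 of the 82 genes, and it also had the highest total of normalized counts, 44732717 against 34417808 to 43474139 in the others. Apc/Tgif replicate 5, also a male, was the highest of its group in 65 genes and had the second total, 43474139. Without wild-type replicate 4 the counts of lower genes were 49 in Apc and 53 in Apc/Tgif tumours, with medians of -0.51 and -0.59. When library totals were made equal, 49 and 55 genes were lower, 3 and 1 were higher, and the medians were -0.40 and -0.52. That scaling moved the median of all genes to 0.19 and 0.15, and relative to it the respiratory genes stood at -0.59 and -0.68, as they do with the authors' scaling (-0.59 and -0.68). A factor per library shifts all genes of that library nearly alike, so this agreement was fixed in advance and is no separate evidence. Equal totals also changed the balance of calls over all genes, from 4415 higher and 4639 lower to 6160 and 3417 in Apc tumours, and from 4576 and 4708 to 5810 and 3843 in Apc/Tgif tumours.

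**Figure D2:**
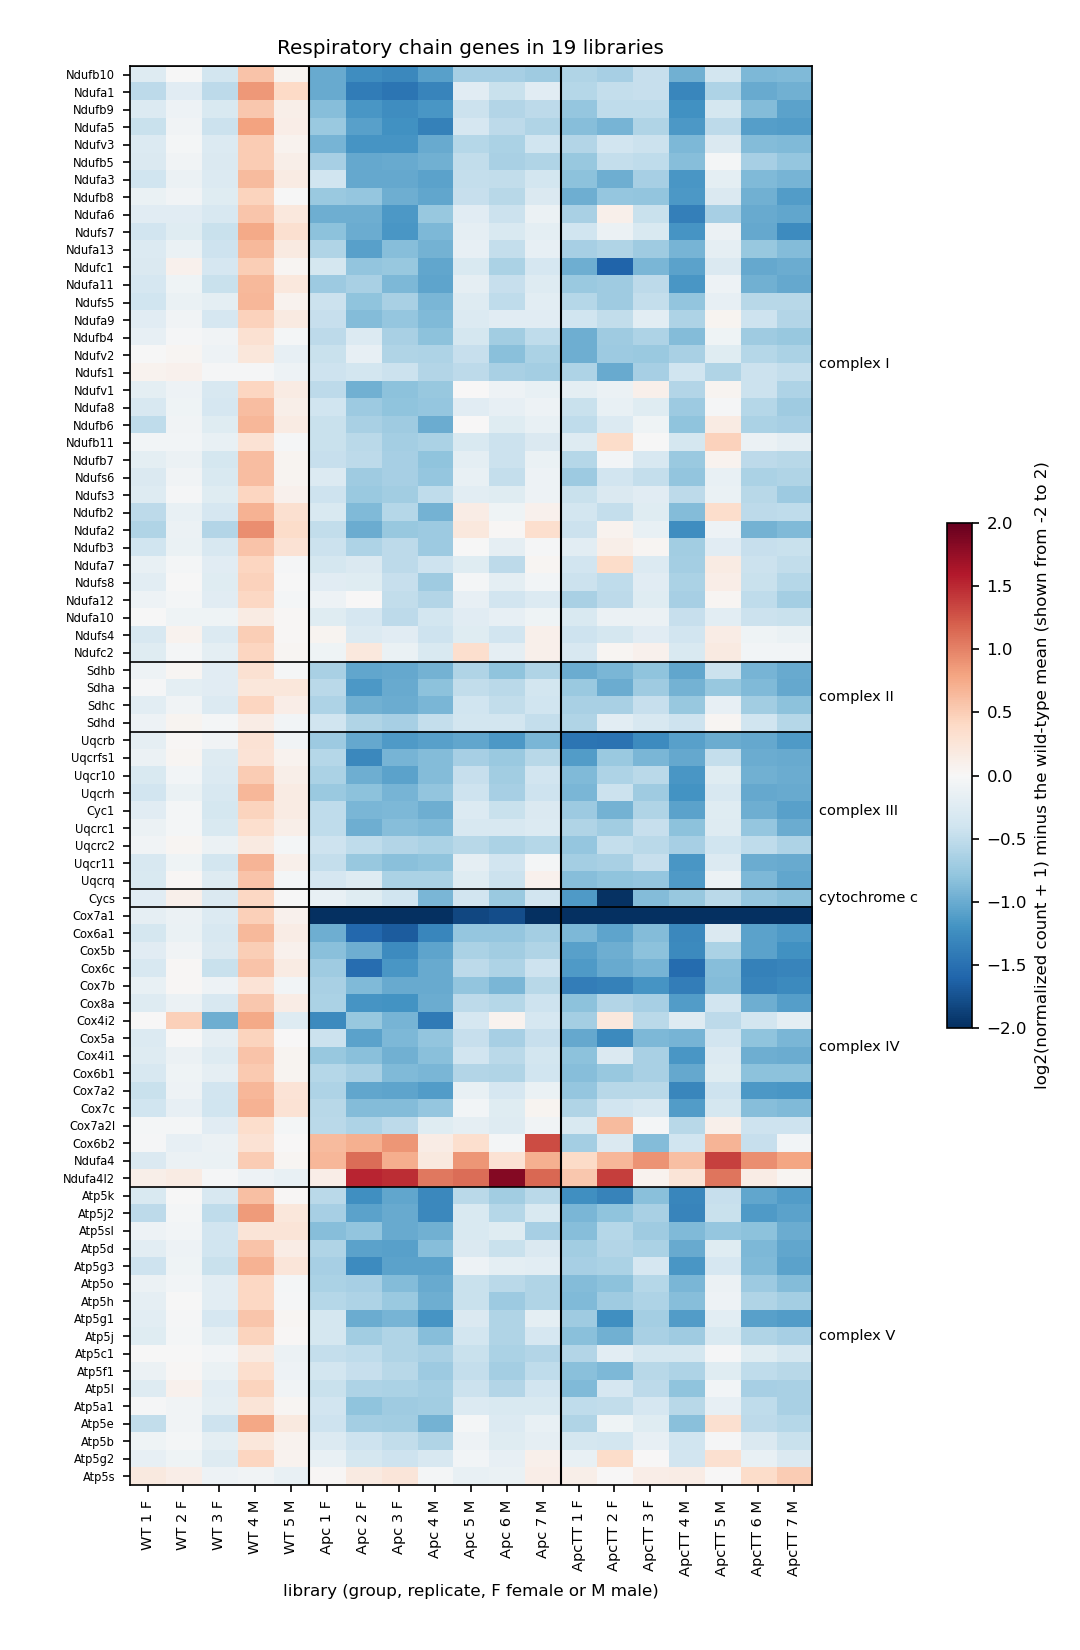
Heat map of log2(normalized count + 1) minus the wild-type mean for 81 of the 82 genes (rows, by complex and then by fold change in Apc tumours) in the 19 libraries (columns, with replicate and sex). Blue is below and red above the wild-type mean, with colours ending at -2 and 2. Most rows turn blue in the tumours, Ndufa4 turns red, and wild-type replicate 4 is red in nearly all rows. Ndufa4l2 is red in most Apc tumours but near the wild-type mean in several Apc/Tgif tumours.

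Since so many of the genes moved together, their promoters were searched for words of factors known to act on respiratory genes. RefSeq windows of 300 bases, from 250 before to 50 after a start (GRCm38.p6), were found for 68 of the 82 genes and for 27025 genes in all. On either strand, the NRF1 word, GCGC then any base then TGCGC, was found in 17 of the 68 genes (25%, against 5.19% of all genes). The ETS word CCGGAAG, which the factor GABP binds, was found in 16 (23.5%, against 9.93%). The YY1 word AANATGGC was found in 18 (26.5%, against 6.96%) and the oestrogen-related receptor word TCAAGGTCA in 2 (2.94%, against 0.466%). At least 1 of the first 3 words was in 44 of the 68 (64.7%, against 19.4%). The 27025 genes were taken whether or not they passed the filter on counts, which all of the 68 did. These shares therefore do not show what is particular to the chain among expressed genes. By outcome in Apc tumours these 44 were 38 of the 54 lower genes with a window and 6 of the 13 that were not called, and Ndufa4, the only higher gene with a window, held none. The counts by outcome were the same in Apc/Tgif tumours. A match is a description of the letters and not evidence of binding. The stretches from 250 to 51 bases before the start are shown for the 3 genes of largest fall in Apc tumours among those lower in both, with a word there and no exon of a coding gene in the stretch, for Ndufa4, which rose, and for Cox7a1, which fell most, with the matched words in capitals. They are Cox6a1 (chr5:115349009-115349208, minus strand), Ndufs5 (chr4:123718237-123718436, minus strand), Atp5l (chr9:44920793-44920992, minus strand), Ndufa4 (chr6:11907501-11907700, minus strand) and Cox7a1 (chr7:30183921-30184120, plus strand), each written 5′ to 3′ on the strand of its gene.
Cox6a1: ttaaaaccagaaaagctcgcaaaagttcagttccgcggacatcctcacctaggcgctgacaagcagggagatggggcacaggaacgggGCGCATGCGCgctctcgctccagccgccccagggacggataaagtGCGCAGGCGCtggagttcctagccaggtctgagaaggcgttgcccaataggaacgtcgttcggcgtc
Ndufs5: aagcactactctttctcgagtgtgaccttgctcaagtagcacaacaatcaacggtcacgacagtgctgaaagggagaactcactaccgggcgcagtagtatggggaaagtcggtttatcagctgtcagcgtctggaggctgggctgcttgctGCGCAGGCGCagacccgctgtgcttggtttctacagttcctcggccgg
Atp5l: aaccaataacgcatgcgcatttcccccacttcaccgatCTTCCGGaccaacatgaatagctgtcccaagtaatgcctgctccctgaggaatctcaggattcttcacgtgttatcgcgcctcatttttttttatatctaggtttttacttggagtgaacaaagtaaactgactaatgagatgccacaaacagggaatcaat
Ndufa4: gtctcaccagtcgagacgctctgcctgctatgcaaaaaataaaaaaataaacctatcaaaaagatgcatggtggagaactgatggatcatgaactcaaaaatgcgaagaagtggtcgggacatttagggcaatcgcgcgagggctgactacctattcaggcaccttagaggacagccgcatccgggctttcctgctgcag
Cox7a1: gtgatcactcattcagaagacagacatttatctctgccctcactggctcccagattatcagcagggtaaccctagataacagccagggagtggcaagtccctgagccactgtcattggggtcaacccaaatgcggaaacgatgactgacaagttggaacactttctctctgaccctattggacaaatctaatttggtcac
The Cox6a1 stretch holds 2 copies of the NRF1 word, the first reading alike on both strands and the second on the other strand. Ndufs5 holds 1 copy of it and Atp5l 1 copy of the ETS word, both on the other strand. Neither Ndufa4 nor Cox7a1 holds any of the 4 words in the whole window.

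In complex I, the NADH dehydrogenase, 25 of 35 genes were lower in Apc tumours and 25 in Apc/Tgif tumours, none was higher, and the medians were -0.52 and -0.58. Fold changes were below 0 for all 35 genes in both. The core subunits, which carry the flavin and the iron-sulphur clusters, and the accessory subunits behaved alike by count, with 5 of 7 and 20 of 28 lower in each comparison. Ndufb10, an accessory subunit of the membrane arm, had 3706, 4387, 3407, 6568 and 4601 normalized counts in wild-type colon, 1806 to 2789 (median 2205) in Apc tumours and 2261 to 3424 (median 2793) in Apc/Tgif tumours. Every Apc tumour lay below every wild-type library, and only the top of the Apc/Tgif range touched them. It was the lowest of complex I in Apc tumours by log2 fold change, -0.99 (SE 0.155, limma adjusted p = 3.42e-05), and stood at -0.73 in Apc/Tgif tumours (SE 0.155, limma adjusted p = 0.00066). Ndufc1, a small accessory subunit, had 1594, 2065, 1528, 2730 and 1992 in wild-type colon, 940 to 1569 (median 1246) in Apc tumours and 637 to 1587 (median 976) in Apc/Tgif tumours. In each kind of tumour 1 or 2 libraries reached into the wild-type range. Its log2 fold changes were -0.65 (SE 0.180, limma adjusted p = 0.00593) and -1.02 (SE 0.180, limma adjusted p = 9.59e-05).

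Other complex I genes with separate groups in both kinds of tumour were Ndufb8 (-0.72 and -0.89), Ndufb9 (-0.89 and -0.79), Ndufv3 (-0.87 and -0.65), Ndufv2 (-0.55 and -0.65), Ndufs1, the largest core subunit (-0.52 and -0.60), and Ndufa10 (-0.28 and -0.30). Ndufs5, whose promoter stretch is shown above, was at -0.58 and -0.59 (limma adjusted p = 0.00401 and 0.00353). Among those not called in either were Ndufa2, Ndufa7, Ndufb2, Ndufb3, Ndufb6, Ndufc2 and Ndufs4. Ndufc2 moved least in Apc tumours, from 2661, 3062, 2755, 4252 and 3231 in wild-type colon to 2543 to 3982 (median 2961) and 2519 to 3563 (median 3025), with log2 fold changes of -0.03 and -0.08. Ndufb11 was the complex I gene called between the tumour genotypes. It had 3537, 3531, 3325, 4492 and 3610 in wild-type colon, 2287 to 3023 (median 2704) in Apc tumours and 2873 to 5042 (median 3406) in Apc/Tgif tumours. The Apc tumours lay below all wild-type libraries and the Apc/Tgif tumours spread across them. Ndufb11 was thus lower in Apc tumours (-0.49, SE 0.136, limma adjusted p = 0.00582), at -0.03 in Apc/Tgif tumours (limma adjusted p = 0.891), and higher in Apc/Tgif than in Apc tumours (0.46, SE 0.123, limma adjusted p = 0.0136).

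All 4 genes of complex II, succinate dehydrogenase, which also serves the citric acid cycle, were lower in both kinds of tumour, with medians of -0.73 and -0.77. Sdha, the flavoprotein, had 14697, 13085, 12859, 17522 and 17581 normalized counts in wild-type colon, 6792 to 11589 (median 10292) in Apc tumours and 7414 to 9141 (median 8162) in Apc/Tgif tumours. Neither tumour group overlapped wild-type colon. Its log2 fold changes were -0.74 (SE 0.123, limma adjusted p = 6.53e-05) and -0.90 (SE 0.123, limma adjusted p = 5.54e-06). Sdhb, the iron-sulphur subunit, had 5963, 6575, 5474, 7945 and 6332 in wild-type colon, 3127 to 4242 (median 3658) in Apc tumours and 3122 to 4750 (median 3352) in Apc/Tgif tumours. Here too both tumour groups stood apart from wild-type colon. The fall was -0.83 (SE 0.118, limma adjusted p = 1.04e-05) and -0.90 (SE 0.118, limma adjusted p = 3.36e-06). Sdhc and Sdhd encode the membrane anchors. Sdhc had 6527, 7183, 6243, 10233 and 8305 in wild-type colon, 3824 to 5743 (median 4932) in Apc tumours and 4285 to 6772 (median 4817) in Apc/Tgif tumours. Sdhd had 9888, 10947, 10302, 11704 and 10131 in wild-type colon, 6677 to 8210 (median 7609) in Apc tumours and 7000 to 10918 (median 8056) in Apc/Tgif tumours. For both anchors the Apc tumours were separate from wild-type colon and 1 Apc/Tgif tumour reached it. Log2 fold changes were -0.72 and -0.64 for Sdhc (limma adjusted p = 0.000242 and 0.000657) and -0.49 and -0.37 for Sdhd (limma adjusted p = 0.000643 and 0.00621). By limma no complex II gene was called between the tumours, and 0 had an unadjusted p under 0.05, with log2 fold changes from -0.16 to 0.13.

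Complex III, the cytochrome bc1 complex, had 8 of 9 genes lower in Apc tumours and 9 of 9 in Apc/Tgif tumours, with medians of -0.65 and -0.83. Uqcrb, a ubiquinone-binding subunit, had 7391, 8506, 7994, 10263 and 7940 normalized counts in wild-type colon, 3773 to 5052 (median 4057) in Apc tumours and 3022 to 4217 (median 3833) in Apc/Tgif tumours. Both tumour groups lay well below the lowest wild-type library. With log2 fold changes of -1.04 (SE 0.106, limma adjusted p = 2.05e-07) and -1.22 (SE 0.106, limma adjusted p = 1.58e-08) it was the lowest of the complex. Uqcrc2, a core protein, had 13007, 14050, 12554, 15391 and 13218 in wild-type colon, 8742 to 10197 (median 9173) in Apc tumours and 7925 to 10305 (median 9355) in Apc/Tgif tumours. It too was separate from wild-type colon in both, at -0.56 and -0.57 (SE 0.085 in each, limma adjusted p = 2.23e-05 and 1.44e-05). Uqcrfs1, the Rieske iron-sulphur protein, was separate in both as well, at -0.83 and -0.92. Cyc1, the haem-bearing cytochrome c1, had 7547, 8616, 6897, 12034 and 9917 in wild-type colon, 4471 to 7269 (median 6210) in Apc tumours and 4172 to 7483 (median 4572) in Apc/Tgif tumours. Its tumour and wild-type ranges met at the edge, and its log2 fold changes were -0.65 (SE 0.168, limma adjusted p = 0.00337) and -0.84 (SE 0.168, limma adjusted p = 0.000357). The remaining genes, Uqcrc1, Uqcrh, Uqcr10 and Uqcr11, were lower in both, from -0.53 to -0.84.

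Uqcrq, a small complex III subunit, had 3576, 4478, 3693, 6537 and 4269 in wild-type colon, 2833 to 4695 (median 3499) in Apc tumours and 2010 to 4038 (median 2436) in Apc/Tgif tumours. Of the Apc tumours 4 lay below the wild-type range and 3 within it, and 1 Apc/Tgif tumour, replicate 5, also reached it. Uqcrq was not called in Apc tumours (-0.37, SE 0.171, limma adjusted p = 0.0779), was lower in Apc/Tgif tumours (-0.83, SE 0.171, limma adjusted p = 0.00046) and was lower in Apc/Tgif than in Apc tumours (-0.46, SE 0.155, limma adjusted p = 0.0491). This last call was lost on leaving out any of 12 single libraries, with log2 fold changes from -0.49 to -0.39. Those were every Apc tumour except replicate 4 and every Apc/Tgif tumour except replicate 5. It was also lost with either sex alone, without the filter, with only these groups in the fit, with a pseudocount of 0.1 and without trend and robust moderation. The call in Apc tumours against wild-type colon appeared without Apc replicate 7 (-0.43).

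Cycs encodes cytochrome c, the soluble carrier between complexes III and IV, which also triggers apoptosis when it leaves the mitochondrion. It had 9706, 12262, 9389, 15275 and 11338 normalized counts in wild-type colon, 6064 to 10300 (median 8715) in Apc tumours and 2897 to 7824 (median 6409) in Apc/Tgif tumours. The Apc/Tgif tumours lay below all wild-type libraries, and the Apc tumours overlapped both other groups. Its log2 fold change was -1.02 in Apc/Tgif tumours (SE 0.198, limma adjusted p = 0.000273) and -0.49 in Apc tumours (SE 0.198, limma adjusted p = 0.0477). The latter was lost without any of wild-type replicates 1, 2, 4 and 5 or Apc replicates 3 to 7 (-0.53 to -0.39). It was also lost with females alone (-0.12), with equal library totals (-0.29) and with quantile normalization (-0.33). Between the tumours it stood at -0.53 (SE 0.180, limma adjusted p = 0.0506), just outside the threshold, and it passed without Apc replicate 4 or 6 or Apc/Tgif replicate 5 (-0.62 to -0.59), and with females alone (-1.07).

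In complex IV, cytochrome c oxidase, 12 of 16 genes were lower in Apc tumours and 11 in Apc/Tgif tumours, with medians of -0.71 and -0.80, and the isoforms went different ways. Cox4i1, the common form of a regulatory subunit that binds ATP, had 17443, 19254, 17341, 30959 and 21560 normalized counts in wild-type colon, 10687 to 16193 (median 12265) in Apc tumours and 9316 to 17293 (median 11791) in Apc/Tgif tumours. Neither tumour group overlapped wild-type colon, though the highest Apc/Tgif tumour came close. Its log2 fold changes were -0.69 (SE 0.174, limma adjusted p = 0.00273) and -0.76 (SE 0.174, limma adjusted p = 0.00119). Cox6a1 had 10219, 11862, 10356, 20425 and 14444 in wild-type colon, 4097 to 8141 (median 6624) in Apc tumours and 5289 to 10684 (median 6227) in Apc/Tgif tumours. The Apc tumours stood apart and Apc/Tgif replicate 5 alone reached wild-type colon. It fell by 1.17 and 1.01 (SE 0.187, limma adjusted p = 4.07e-05 and 0.000165). Cox8a, the common, liver-type form of its subunit, had 10534, 11615, 10052, 18114 and 13867 in wild-type colon, 5474 to 9451 (median 8091) in Apc tumours and 5768 to 9621 (median 7085) in Apc/Tgif tumours. It was separate from wild-type colon in both, at -0.82 and -0.84 (SE 0.171, limma adjusted p = 0.000564 and 0.000401). Cox5a, Cox5b, Cox6c and Cox7c were also lower in both: Cox5b at -0.90 and -1.04, Cox6c at -0.89 and -1.21, Cox5a at -0.73 and -0.94, and Cox7c at -0.52 and -0.69.

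Cox7b, a small subunit encoded on the X chromosome (chrX:106015700-106022450, plus strand, GRCm38), had 7868, 8830, 8090, 10477 and 8386 in wild-type colon, 4330 to 5881 (median 4687) in Apc tumours and 3313 to 4758 (median 3489) in Apc/Tgif tumours. All tumours lay below all wild-type libraries, and the tumour groups overlapped in part. It was called in the 3 comparisons: -0.85 (SE 0.109, limma adjusted p = 3.56e-06), -1.27 (SE 0.109, limma adjusted p = 1.59e-08) and, between the tumours, -0.42 (SE 0.099, limma adjusted p = 0.00633).

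Cox7a1 (chr7:30184144-30186078, plus strand, GRCm38) encodes the form of a small subunit found in heart and other muscle, and Cox7a2 its more widespread counterpart. Cox7a1 had 1014, 1065, 959, 1607 and 1230 normalized counts in wild-type colon, 140.0 to 337.0 (median 223.0) in Apc tumours and 38.94 to 165.8 (median 125.0) in Apc/Tgif tumours. Every tumour lay far below every wild-type library, and the 2 tumour groups overlapped at the margin. Its log2 fold changes were -2.55 (SE 0.275, limma adjusted p = 4.11e-07), -3.54 (SE 0.275, limma adjusted p = 4.71e-09) and, between the tumours, -0.99 (SE 0.248, limma adjusted p = 0.00963). Cox7a2 had 4578, 5796, 4778, 9856 and 7528 in wild-type colon, 2888 to 5654 (median 4042) in Apc tumours and 2520 to 4654 (median 3664) in Apc/Tgif tumours. Its ranges overlapped, and it was lower by less, at -0.68 (SE 0.223, limma adjusted p = 0.0164) and -0.88 (SE 0.223, limma adjusted p = 0.00265). The log2 ratio of Cox7a1 to Cox7a2 averaged -2.43 ± 0.192 for wild-type colon, -4.25 ± 0.246 for Apc tumours and -5.04 ± 0.79 for Apc/Tgif tumours (mean ± SD over 5, 7 and 7 libraries). It differed in the 3 comparisons, by -1.82 and -2.60 against wild-type colon (two-sided exact permutation test, p = 0.00126, the smallest that 5 against 7 libraries allow, 0.00378 adjusted over 18 ratio tests) and by -0.78 between the tumours (exact permutation p = 0.0035, adjusted 0.009). The ratios were chosen with values of these genes known. Cox7a1 had already been called in the 3 comparisons, so its ratio adds no separate evidence. All 10 smooth muscle markers examined (Acta2, Myh11, Tagln, Cnn1, Des, Mylk, Smtn, Actg2, Lmod1 and Synpo2) were also lower in both kinds of tumour: their summed level was 206708 to 306998 in wild-type colon, 13463 to 23086 in Apc tumours and 10316 to 19207 in Apc/Tgif tumours. The 6 striated muscle markers summed to 377.4 to 869.7, 129.2 to 403.6 and 481.4 to 1189 in the 3 groups, and went both ways: Ckm, muscle creatine kinase, averaged 363.2, 6.08 and 1.12, and Acta1, skeletal muscle actin, 185.4, 211.5 and 741.2. The 5 fat cell markers summed to 892.4 to 6095, 352.5 to 1341 and 353.0 to 2061. The part of muscle and fat cells in the values of Cox7a1 was not tested.

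Ndufa4 (chr6:11900292-11907497, minus strand, GRCm38) was the one gene of the chain called higher in both kinds of tumour. It had 3022, 3420, 3373, 5236 and 3793 normalized counts in wild-type colon, 4224 to 8027 (median 6069) in Apc tumours and 4817 to 9499 (median 6421) in Apc/Tgif tumours. Wild-type replicate 4, the highest library for most of the chain, was the one that overlapped the tumours. Its log2 fold changes were 0.64 (SE 0.178, limma adjusted p = 0.00583) and 0.79 (SE 0.178, limma adjusted p = 0.00105), with 0.15 between the tumours (limma adjusted p = 0.59). With males alone neither of the calls against wild-type colon passed (0.25 and 0.65). Against Cox4i1 of the same enzyme, its log2 ratio averaged -2.49 ± 0.077 for wild-type colon, -1.17 ± 0.393 for Apc tumours and -0.95 ± 0.341 for Apc/Tgif tumours (mean ± SD over 5, 7 and 7 libraries). No tumour library overlapped wild-type colon in this ratio, a difference of 1.32 and 1.54 (exact permutation p = 0.00126 and 0.00126, adjusted 0.00378 each). Ndufa4 and Cox4i1 had already been called in opposite directions in these libraries, so the ratio adds no separate evidence. Between the tumours it differed by 0.22, which did not pass (exact permutation p = 0.28, adjusted 0.315). Ndufa4l2, a relative of Ndufa4 known to be induced in low oxygen, had few counts: 45.42, 46.81, 40.89, 38.8 and 37.59 in wild-type colon, 46.09 to 151.5 (median 93.54) in Apc tumours and 42.86 to 110.1 (median 50.05) in Apc/Tgif tumours. All but 1 of the Apc tumours lay above wild-type colon, and the Apc/Tgif tumours began within it. It was higher in Apc tumours (1.20, SE 0.286, limma adjusted p = 0.00185) and not called in Apc/Tgif tumours (0.51, SE 0.286, limma adjusted p = 0.148). The difference between the tumours was -0.69 (SE 0.258, limma adjusted p = 0.0774), and it passed without Apc replicate 1 or Apc/Tgif replicate 2 or 5 (-0.88 to -0.79).

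**Figure D3:**
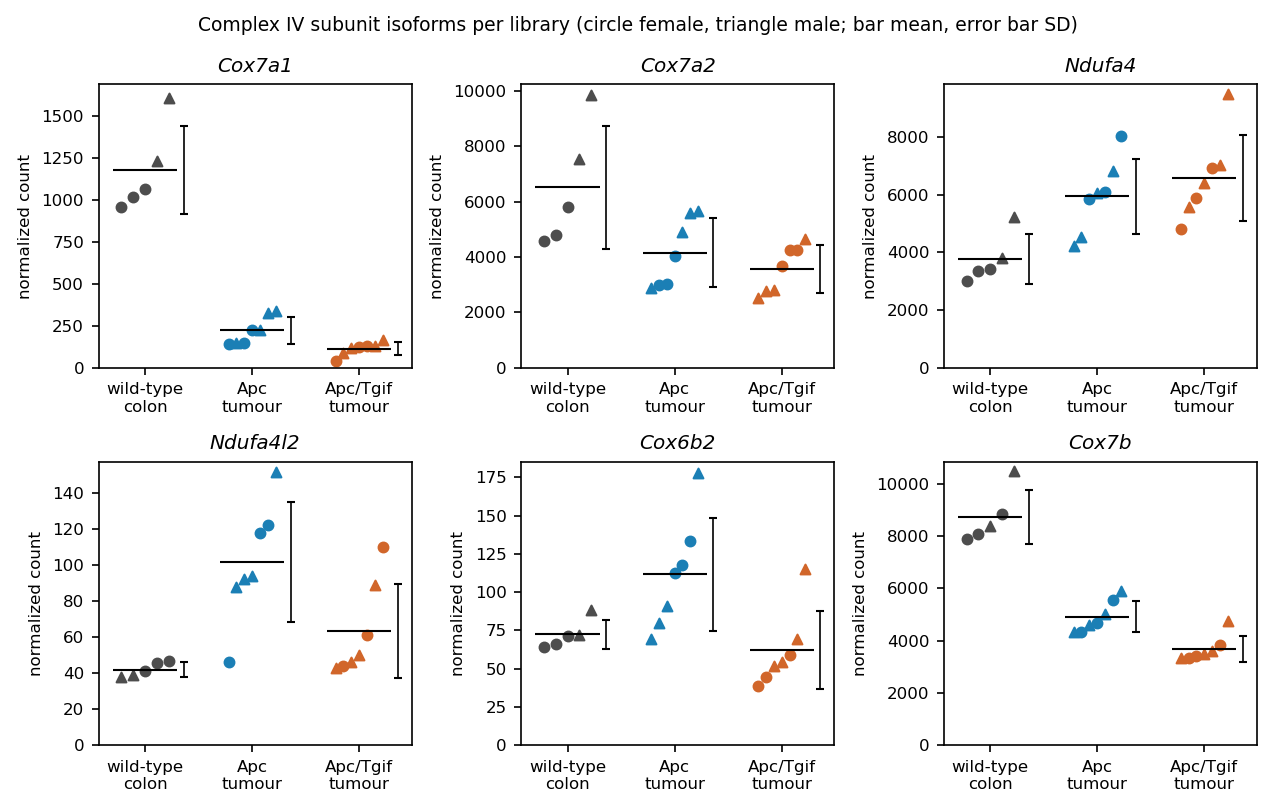
Normalized counts (vertical axes, from 0) of 6 complex IV genes in each library by group (horizontal axis), circles for females and triangles for males, with the group mean and SD. Cox7a1 is lowest in Apc/Tgif tumours, Ndufa4 is higher in both kinds of tumour, and Ndufa4l2 and Cox6b2 are highest in Apc tumours, up to 151.5 and 178.1.

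Cox6b1 had 8624, 10143, 9421, 15383 and 11177 in wild-type colon, 5659 to 8124 (median 7048) in Apc tumours and 5279 to 9075 (median 6090) in Apc/Tgif tumours, and was lower in both (-0.69 and -0.76, limma adjusted p = 0.000458 and 0.000138). Its testis-type counterpart Cox6b2 had 71.03, 63.97, 66.36, 88.38 and 71.86 in wild-type colon, 69.55 to 178.1 (median 112.2) in Apc tumours and 38.85 to 115.2 (median 54.24) in Apc/Tgif tumours. All 3 groups overlapped. Cox6b2 was not called against wild-type colon (0.54 and -0.32, limma adjusted p = 0.0951 and 0.322) and was lower in Apc/Tgif than in Apc tumours (-0.86, SE 0.236, limma adjusted p = 0.0163). It passed as higher in Apc tumours without Apc replicate 6 (0.64), with quality weights (0.64), and with equal library totals, quantile normalization or females alone (0.74, 0.71 and 0.84). The ratio of Cox6b2 to Cox6b1 was higher in Apc tumours than in wild-type colon by 1.22 on the log2 scale (exact permutation p = 0.00126, adjusted 0.00378) and lower in Apc/Tgif than in Apc tumours by 0.784 (exact permutation p = 0.00408, adjusted 0.00918). Between Apc/Tgif tumours and wild-type colon it did not pass (0.44, exact permutation p = 0.0442, adjusted 0.0723). Cox6b1 had already been called lower in Apc tumours, and Cox6b2 lower in Apc/Tgif than in Apc tumours. The ratio of Cox6b2 to Cox6b1 therefore adds no separate evidence. Cox4i2, the form known from lung and low oxygen, had 44.28, 61.92, 21.81, 74.92 and 36.55 in wild-type colon, 15.86 to 46.51 (median 25.61) in Apc tumours and 27.25 to 51.17 (median 34.1) in Apc/Tgif tumours. These ranges overlapped, and its call as lower in Apc tumours (-0.76, SE 0.302, limma adjusted p = 0.0443) was lost without any of wild-type replicates 1, 2 and 4 or Apc replicates 1 to 4 (-0.78 to -0.58), and with equal library totals (-0.56) or quantile normalization (-0.49). The ratio of Cox4i2 to Cox4i1 passed in none of the 3 comparisons (exact permutation, adjusted 0.874, 0.203 and 0.105), nor did that of Ndufa4l2 to Ndufa4 (adjusted 0.187, 0.349 and 0.0502). Cox7a2l, which takes part in joining complexes III and IV into supercomplexes, had 7624, 7643, 6686, 9980 and 7609 in wild-type colon, 5118 to 7485 (median 6554) in Apc tumours and 5320 to 12125 (median 6348) in Apc/Tgif tumours. It was not called in any comparison of the main fit (-0.35, -0.15 and 0.20). Cox7a2l passed as lower in Apc tumours with a mean per group and sex (-0.40), only the groups compared (-0.40) or quality weights (-0.35). It also passed as lower in Apc/Tgif tumours with quality weights (-0.38), and as higher between the tumours with females alone (0.65).

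In complex V, 14 of 17 genes were lower in each kind of tumour, with medians of -0.58 and -0.66. The 17 include Atp5s and Atp5sl, which are not structural subunits of it. Atp5sl was among the lower genes in Apc tumours (-0.72, limma adjusted p = 0.000365). It had 931.2 to 1454 normalized counts in wild-type colon, 601.9 to 1019.5 in Apc tumours and 605.5 to 813.5 in Apc/Tgif tumours. Its Apc/Tgif tumours thus lay below all wild-type libraries, and the Apc tumours overlapped them. Atp5b, the catalytic beta subunit, had 59693, 61866, 55389, 74203 and 66558 normalized counts in wild-type colon, 41508 to 58760 (median 52510) in Apc tumours and 46649 to 62435 (median 49570) in Apc/Tgif tumours. The ranges overlapped, and the log2 fold changes were small, -0.35 (SE 0.105, limma adjusted p = 0.00992) and -0.31 (SE 0.105, limma adjusted p = 0.0206). Its direction depended on the scaling: with quantile normalization it stood at 0.13 and 0.06, and with equal library totals at -0.15 in each, not called. Without wild-type replicate 4 its call in Apc/Tgif tumours was lost (-0.26). Atp5a1, the alpha subunit, stood at -0.52 and -0.48, and Atp5f1, a subunit of the peripheral stalk, at -0.56 and -0.62 with separate groups in both. Atp5k, the small e subunit of the membrane part, had 2995, 3682, 2943, 5599 and 3724 in wild-type colon, 1507 to 2545 (median 2271) in Apc tumours and 1452 to 2663 (median 1699) in Apc/Tgif tumours. No tumour reached wild-type colon, and it was the lowest of the complex at -0.88 (SE 0.179, limma adjusted p = 0.000453) and -1.09 (SE 0.179, limma adjusted p = 4.23e-05). Atp5l, the g subunit beside it, whose promoter stretch is shown above, was at -0.56 and -0.58. Atp5c1, the gamma subunit that rotates in the catalytic head, had 13536, 13492, 13141, 15370 and 12508 in wild-type colon, 8637 to 10013 (median 9046) in Apc tumours and 9078 to 13324 (median 10686) in Apc/Tgif tumours. The Apc tumours were separate from wild-type colon, and the Apc/Tgif tumours ran from the Apc range into the wild-type range. Atp5c1 was lower in both (-0.57 and -0.31, limma adjusted p = 4.64e-05 and 0.00799) and higher in Apc/Tgif than in Apc tumours (0.25, SE 0.083, limma adjusted p = 0.0417). Its call in Apc/Tgif tumours against wild-type colon was lost with equal library totals (-0.16), quantile normalization (-0.18) and males alone (-0.27). The call between the tumours was lost without any of Apc replicates 3, 4, 6 and 7 or Apc/Tgif replicates 2, 3, 5, 6 and 7 (0.21 to 0.26).

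Atp5g1, Atp5g2 and Atp5g3 encode the same mature c subunit of the membrane ring, and they did not move alike. Atp5g1 had 5978, 6806, 5466, 10147 and 7109 in wild-type colon, 3070 to 6040 (median 4567) in Apc tumours and 2947 to 5977 (median 3283) in Apc/Tgif tumours. Atp5g3 had 12542, 15758, 12280, 26991 and 19630 in wild-type colon, 6941 to 15605 (median 10554) in Apc tumours and 7402 to 13199 (median 10552) in Apc/Tgif tumours. Both overlapped wild-type colon and were lower, Atp5g1 at -0.68 and -0.91 (limma adjusted p = 0.00818 and 0.000826) and Atp5g3 at -0.70 and -0.78 (limma adjusted p = 0.0145 and 0.00717). Without wild-type replicate 4 the Apc tumour calls of Atp5g3 (-0.55) and of Cox7a2 (-0.52) were lost. Atp5g2 had 5616, 5963, 5277, 8480 and 6624 in wild-type colon, 4709 to 6784 (median 5596) in Apc tumours and 4836 to 8130 (median 5680) in Apc/Tgif tumours. Its groups overlapped throughout and it was not called (-0.21 and -0.06, limma adjusted p = 0.237 and 0.764). The log2 ratio of Atp5g2 to Atp5g3 was higher in Apc/Tgif tumours than in wild-type colon by 0.69 (exact permutation p = 0.00126, adjusted 0.00378). In Apc tumours the difference of 0.46 did not pass after adjustment (exact permutation p = 0.029, adjusted 0.0522), nor did that of 0.23 between the tumours (exact permutation, adjusted 0.201). Atp5g3 had already been called lower and Atp5g2 had not, so their ratio adds no separate evidence. Atp5s, a coupling factor that is no structural subunit, had 370.1, 355.2, 301.1, 309.4 and 293.5 in wild-type colon, 292.9 to 385.1 (median 328.0) in Apc tumours and 326.8 to 459.3 (median 356.7) in Apc/Tgif tumours, and was not called (0.05 and 0.19).

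The mitochondrial ribosome translates the part of the chain that mitochondrial DNA encodes. Of its 77 genes, 4 were lower and 7 higher in Apc tumours, 7 lower and 8 higher in Apc/Tgif tumours, with medians of 0.032 and -0.006. Per library, the median of the 82 respiratory genes minus the median of the 77 ribosomal genes, each relative to wild-type means, was -0.063, -0.027, -0.154, 0.181 and 0.066 in wild-type colon, -0.911 to -0.409 in Apc tumours and -0.725 to -0.465 in Apc/Tgif tumours. Wild-type colon did not overlap either kind of tumour, while the tumour groups overlapped, and Apc/Tgif replicate 5, at -0.598, lay among the other tumours. Mrps6, a small-subunit protein, was the ribosomal gene lower in the 3 comparisons with the smallest p in each (-0.91, -1.45 and -0.54, limma adjusted p = 9.16e-06, 1.96e-08 and 0.00302).

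**Figure D4:**
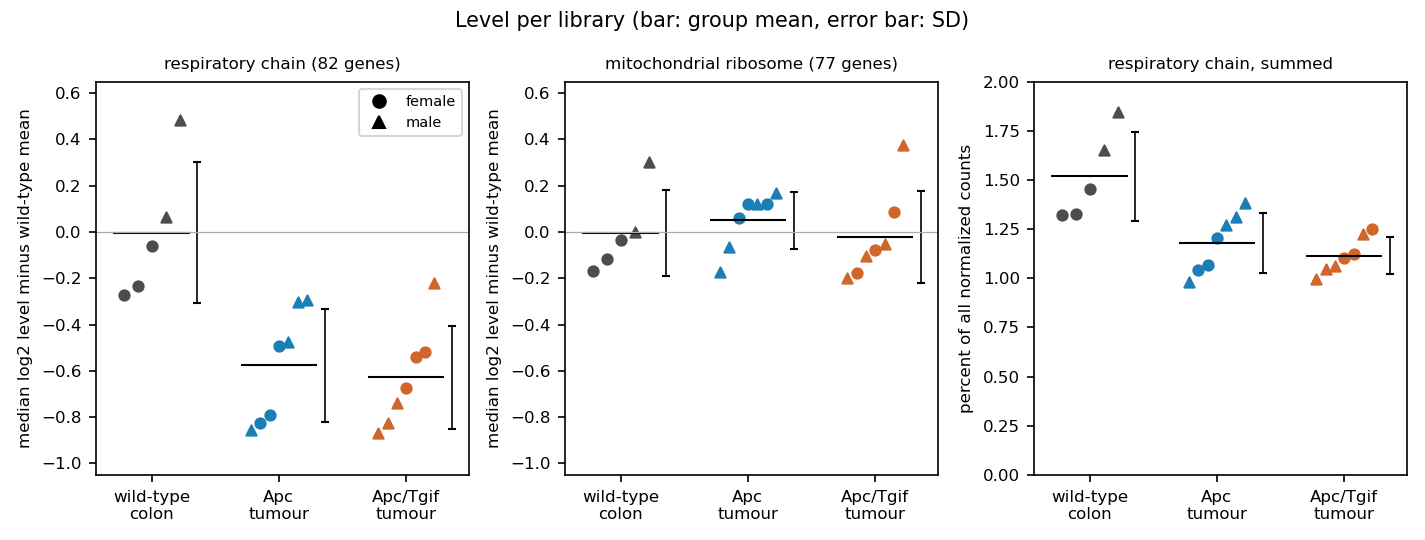
Per library and group, the median log2 level of 82 respiratory chain genes and of 77 mitochondrial ribosome genes relative to the wild-type mean, and the percent of all normalized counts in respiratory genes (circles female, triangles male, with mean and SD). The respiratory genes lie below 0 in all tumours, between -0.868 and -0.221, whereas the ribosomal genes spread around 0 in the 3 groups.

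Genes of the citric acid cycle, which feeds the chain with electrons, were also lower, with 11 of 14 in Apc tumours and 12 in Apc/Tgif tumours, none higher, and medians of -0.40 and -0.48. Cs, citrate synthase, the entry enzyme of the cycle, had 31557, 29688, 27374, 31218 and 29440 normalized counts in wild-type colon, 12503 to 15712 (median 14966) in Apc tumours and 13634 to 16010 (median 14355) in Apc/Tgif tumours. Tumours and wild-type colon were far apart, and it was at -1.06 in each (SE 0.081, limma adjusted p = 4.69e-09 and 3.64e-09). Suclg1, a succinyl-CoA ligase subunit, stood at -0.94 and -0.95, while Idh2 and Idh3a were not called. By limma none of the 14 was called between the tumours, where 16.6% of all genes were, and 0 had an unadjusted p under 0.05. Of 49 assembly factors, 14 and 15 were lower and 2 and 2 higher. The lower share, 28.6% and 30.6%, was near that of all genes, 25.2% and 25.5%. The higher share was 4.08% in each, against 23.9% and 24.8% of all genes. Among the lower were the complex IV factors Sco1, a copper chaperone (-0.81 and -0.76), Cox10, which makes haem for the enzyme (-0.81 and -0.73), and Cox11 (-0.50 and -0.76). Atpaf1, an ATP synthase assembly factor, was higher in both tumours (0.25 and 0.53) and higher in Apc/Tgif than in Apc tumours (0.28, limma adjusted p = 0.0183). Ecsit, a complex I assembly factor, was lower in Apc tumours (-0.42), not called in Apc/Tgif tumours (-0.01), and higher in Apc/Tgif than in Apc tumours (0.42, limma adjusted p = 0.0167). Among 14 genes of channels, carriers, import and chaperones, 5 were lower in each kind of tumour, such as the outer membrane channel Vdac3 (-0.69 and -0.91) and the ADP/ATP carrier Slc25a5 (-0.80 and -0.71), and 4 and 1 were higher, such as the import receptor Tomm20 (0.67 and 0.79). That is 35.7% lower in each, and 28.6% and 7.14% higher. Higd1a, a small protein that associates with complex IV, was lower in Apc/Tgif tumours than in wild-type colon (-1.49) and than in Apc tumours (-1.08, limma adjusted p = 0.00611).

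**Figure D5:**
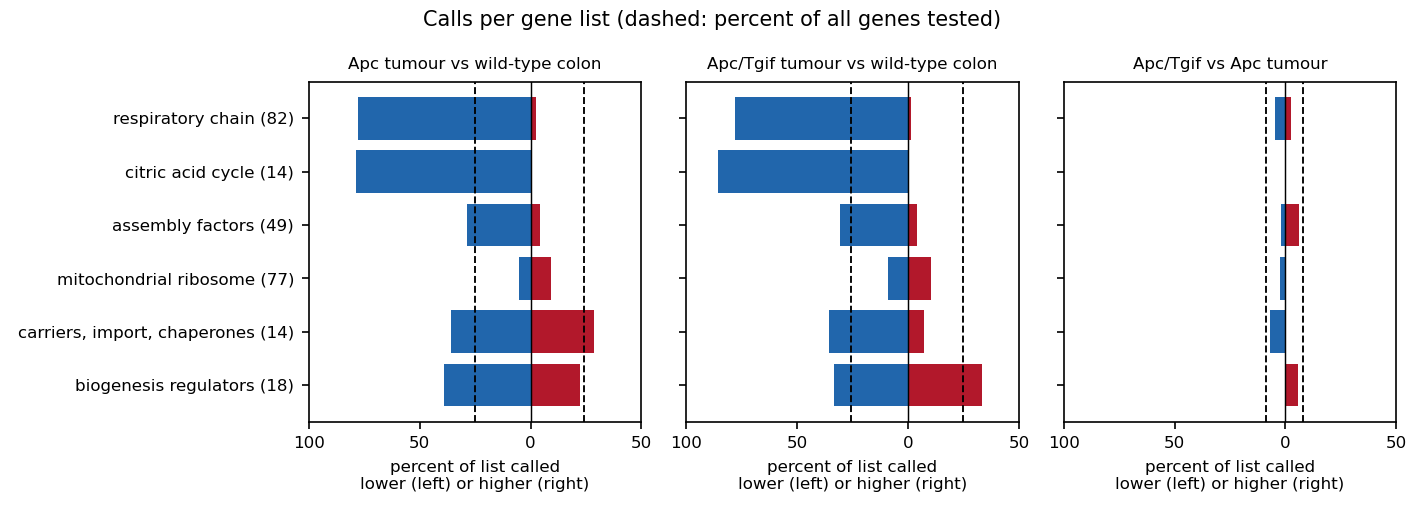
Percent of each gene list called lower (bars to the left) or higher (to the right) in the 3 comparisons, with list sizes in brackets and dashed lines at the percent of all 18445 genes. Respiratory chain and citric acid cycle bars reach 78.0% to 85.7% lower against wild-type colon, and the mitochondrial ribosome stays below the dashed lines.

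Among 18 regulators of mitochondrial biogenesis, 7 were lower and 4 higher in Apc tumours, and 6 and 6 in Apc/Tgif tumours. That is 38.9% and 33.3% lower, against 25.2% and 25.5% of all genes, and 22.2% and 33.3% higher, against 23.9% and 24.8%. Their median log2 fold changes were 0.028 and -0.013. Esrrg, an oestrogen-related receptor, had 1126, 916, 822, 605 and 824 normalized counts in wild-type colon, 25.69 to 146.1 (median 39.96) in Apc tumours and 15.7 to 44.56 (median 33.32) in Apc/Tgif tumours, without overlap (-4.16 and -4.76, limma adjusted p = 3.9e-08 and 4.88e-09). Ppargc1a, the coactivator PGC-1alpha, had 3436, 2185, 2294, 1646 and 2479 in wild-type colon, 473.0 to 1533 (median 923) in Apc tumours and 535 to 1195 (median 818) in Apc/Tgif tumours, also without overlap (-1.41 and -1.58). Esrra, Ppargc1b and Hnf4a were lower in both as well, at -1.02 and -0.73, -1.91 and -2.08, and -1.40 and -1.09. Myc, a driver of cell growth, was among the regulators called higher. It had 1011, 1189, 1317, 1433 and 1019 in wild-type colon, 1613 to 3658 (median 3182) in Apc tumours and 3167 to 6038 (median 4263) in Apc/Tgif tumours. All tumours were above wild-type colon, and Myc was called in the 3 comparisons (1.30, 1.87 and 0.57, limma adjusted p = 2.04e-05, 1.89e-07 and 0.0316). Nrf1, whose word is counted above, and Tfam, which maintains mitochondrial DNA, were not called in any comparison.

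Markers of some other cells moved with the same groups. Of all genes, 25.2% and 25.5% were lower than in wild-type colon in Apc and Apc/Tgif tumours, and 23.9% and 24.8% higher. Between the tumours 8.76% of all genes were lower in Apc/Tgif tumours. Beside smooth muscle, colonocyte markers were lower for 7 of 7 genes in both kinds of tumour, and 5 of 7 were lower in Apc/Tgif than in Apc tumours. Their sums were 209039 to 260813 in wild-type colon, 11096 to 66229 in Apc tumours and 3346 to 31748 in Apc/Tgif tumours. Goblet cell markers were lower for 3 and 5 of 5, with sums of 229253 to 426281, 42152 to 178795 and 12002 to 48552. Enteric neuron and glia markers were lower for 7 and 8 of 8, B and plasma cell markers for 5 and 5 of 5, and neutrophil markers were higher for 4 and 4 of 4 (134.4 to 180.1, 5260 to 10423 and 1663 to 11387). Fibroblast markers, 4 in all, were higher for 3 and 2, with sums of 25957 to 38456, 51758 to 99001 and 27695 to 62670. T cell markers were lower for 2 and 2 of 4, macrophage markers higher for 1 and 3 of 4, endothelial markers higher for 1 and 1 of 3, and pericyte markers went both ways. In lists of 3 or 4 genes, 1 or 2 calls cannot be told from the share of all genes. Of 8 general epithelial markers, 3 were lower and 1 higher in each kind of tumour, with sums of 430867 to 543343, 275879 to 506390 and 325550 to 410658, so that the Apc/Tgif tumours lay below wild-type colon and the Apc tumours overlapped it. Of all these markers, Myh4, of striated muscle, was at 0 in every Apc/Tgif tumour, and no other was at 0 throughout a group. Their part in the respiratory values was not tested, and in pieces of tissue fewer cells of a type and less RNA per cell cannot be told apart.

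Whether the effect depended on sex was tested as its value in males minus that in females. Between Apc tumours and wild-type colon the effect differed between males and females in 0 of the 82 genes by limma (2 at an unadjusted p under 0.05), against 0.0108% of all genes. Between Apc/Tgif tumours and wild-type colon it differed in 6 genes, against 3.4% of all genes, each more negative in males. With females alone 38 genes were lower, with a median of -0.38, and with males alone 64 genes, with a median of -0.92. Over all 18445 genes, 4082 and 3916 were lower in these fits. The fit of males alone held 2 wild-type libraries. Among them was replicate 4, the highest of its group in 78 of the 82 genes. Calls in Apc/Tgif tumours lost with females alone included Ndufb10 (-0.36), Cox4i1 (-0.38), Cox7a2 (-0.31) and Atp5g3 (-0.23). Between the tumours Cox7a1 was not called with females alone (-0.96), nor Cox7b (-0.39), Cox6b2 (-0.49) and Ndufb11 (0.37) with males alone. The 6 calls were of Ndufa1, Ndufa2, Ndufa6, Ndufb3, Ndufs7 and Cox7c, and none was left without any of wild-type replicates 1, 3, 4 and 5. Without Apc/Tgif replicate 2, 4, 6 or 7 there were 1, 1, 1 and 2, and without replicate 5 there were 28. Ndufa2, a small accessory subunit of complex I, had 1377, 1940 and 1405 in wild-type females and 4016 and 2699 in wild-type males, 1051 to 1499 in Apc females and 1261 to 2651 in Apc males, and 1550, 2200 and 1892 in Apc/Tgif females beside 891, 1958, 1094 and 1132 in Apc/Tgif males. Males were thus above females in wild-type colon, and 3 of 4 males below all females in Apc/Tgif tumours. Between the tumour genotypes the effect differed by sex in 11 genes, against 23.6% of all genes, so the share of the chain (13.4%) was the lower of the pair. With females alone 10 genes were higher in Apc/Tgif than in Apc tumours and 4 lower, and the median was 0.14. Over all 18445 genes 2230 were higher and 2218 lower in that fit, so the 10 are near the share of all genes. With males alone none was higher and 3 were lower, and the median was -0.17. Over all genes 1544 were higher and 1658 lower there. The count of 11 ranged from 3 without Apc replicate 2 to 26 without Apc/Tgif replicate 5.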

How the data were processed

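Normalized counts per gene, a signal scaled per library, were taken as the authors deposited them for 19 libraries. Salmon, DESeq2 and the mouse build GRCm38/mm10 are named per the submitters' processing notes. The sources used here give neither their versions nor the annotation or strand setting. Each library is 1 mouse per the labels, so p-values measure the spread between mice. The deposited values sum to 34417808 to 44732717 per library. Low values are near multiples of 0.743 to 1.44, which puts the depth at about 28718211 to 49162809 counts, but only 83.9% to 87.0% of them came within 0.1 of a step. No test for counts was therefore used.

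Genes with at least 10 normalized counts in at least 5 libraries were kept (18445). Log2(normalized count + 1) was fitted with limma 3.58.1 in R 4.3.3, with terms for group and sex, intensity trend and robust moderation, over all 19 libraries. P-values were two-sided and adjusted by Benjamini-Hochberg over all 18445 genes, with a threshold of 0.05. Fold changes are on this log2 scale, which understates those of low genes. Sex differences of an effect came from a model with a mean for each combination of group and sex. The isoform ratios were compared by two-sided exact permutation over libraries, adjusted over 18 tests. The fitting steps were tested on simulated data.

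The members, the other gene lists and the ratios were chosen with earlier results of these data known. Values were printed in full for the genes with the highest and lowest fold change and the highest mean level in each complex, for the paired isoforms, for all Sdh genes and for Cycs and Cyc1. From the other lists at most 3 genes per comparison, those of smallest p, were eligible. The Esrra, Ppargc1b, Hnf4a, Nrf1, Tfam, Idh2 and Idh3a values and the Ndufa2 values by sex were added after they were seen. Several small subunits have processed pseudogenes or overlapping neighbours, and how their reads were shared is not given, so their levels are uncertain to that extent. Some genes that this rule covers are not reported here. Levels were not corrected for gene length and are not compared between genes. Gene positions are from GENCODE and promoter sequences from RefSeq (GRCm38.p6).

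Alternatives were pseudocounts of 0.1 and 5, no filter and a filter at 100, equal library totals, quantile normalization, no sex term, a mean per group and sex, each sex alone, only the 2 groups compared, library quality weights, no trend or robust moderation, and leaving out each library.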

Additional observations from a re-analysis of the deposited data

Results flagged for a closer look

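A single library stood far from the rest of its group, by Dixon's test, in 8 of 102 sets of values examined, where chance gives about 1 in 20. Apc/Tgif replicate 5 was the high library in 7 of them: Cox6a1 with 10684 normalized counts, Cox6b1 with 9075, Cox6b2 with 115.2, Cox7b with 4758, Ndufc1 with 1587, Sdhb with 4750 and Uqcrq with 4038. The last, Ndufb11, was high in wild-type replicate 4, with 4492.

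The effect differed between the sexes, by limma, for 6 genes between Apc/Tgif tumours and wild-type colon. The effect in males minus that in females was -1.18 for Cox7c, -1.53 for Ndufa1, -1.70 for Ndufa2, -1.33 for Ndufa6, -1.14 for Ndufb3 and -1.52 for Ndufs7 on the log2 scale. Between Apc/Tgif and Apc tumours 9 of 11 such differences were negative: Cox7a2l -0.78, Cox7c -0.88, Ndufa1 -1.20, Ndufa2 -1.33, Ndufa6 -1.34, Ndufb3 -0.73, Ndufs7 -1.21, Ndufv1 -0.84 and Ndufv3 -0.71. Cycs, at 0.94, and Ndufs1, at 0.49, were positive.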

How the results depend on the processing

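Against wild-type colon, leaving out each library gave 49 to 65 lower genes for Apc tumours and 53 to 66 for Apc/Tgif. Over the other alternatives they ran from 49 to 70 and from 38 to 73. Females alone gave the 38, with a median of -0.375. Higher calls in Apc tumours were 1 instead of 2 with the filter at 100 and with males alone, and 3 with equal totals, quantile normalization, quality weights or without Apc replicate 6. In Apc/Tgif tumours they were 2 instead of 1 with quantile normalization and with quality weights, and 0 with males alone. Between the tumours they were 1 instead of 2 with no filter, with only these groups and with neither trend nor robust moderation, 10 with females alone, 0 with males alone, and 1 to 2 on leaving out each library. Lower calls between the tumours were 10 instead of 4 with quality weights and 3 to 7 on leaving out each library, with 7 without Apc/Tgif replicate 5. The 6 sex differences of Apc/Tgif tumours against wild-type colon became 3 with neither trend nor robust moderation and 0 to 28 on leaving out each library. The 11 between the tumours became 19 with equal totals and 3 to 26 on leaving out each library. Atp5b changed sign with quantile normalization, to 0.127 in Apc and 0.0649 in Apc/Tgif tumours. Over the named genes and all alternatives, direction and side of the threshold were kept in 768 cases and changed in 55 for Apc tumours, 804 and 19 for Apc/Tgif tumours, and 833 and 56 between them. The cause of these changes was not tested. With 5 to 7 libraries a group, changes that are small beside the spread between mice cannot be told from none, and genes of low counts such as Cox4i2 are the least precise. No paired analysis was possible because the replicate numbers only name mice in accession order and no label pairs mice across groups.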
